A study of Mus musculus with 11 samples.

Results

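The gene set described here is a list of 45 genes that are imprinted in the mouse, followed in SMB21 cells, a mouse medulloblastoma line, and in drug-resistant clones derived from it. All 45 symbols were in the deposited count table. Of these, 30 had a mean of at least 0.5 CPM (a gene's reads scaled to a common library total) over the 11 libraries and are described by their values, and 15 stayed under that level. In the whole table, 13274 of 22619 named genes reached the same level. The members are listed by their imprinting in the mouse and kept by their mean level over all libraries. A member that is high in a single group can pass that level through that group, and Grb10 did, as described below.

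SMB21 neurospheres were profiled by RNA-seq in 4 groups. The parental line treated with sonidegib, an inhibitor of Smoothened, for 24 hours gave 2 libraries (sonidegib 1 and 2). Ofd1 mutant cells gave 4 libraries from 3 clones, R14 with 2 libraries and R16 and R25 with 1 each. Sufu mutant cells gave 2 libraries from clones R13 and R1. The untreated parental line gave 3 libraries. All groups carry the Ptch mutant background of the line, whose strain is given as Ptch1tm1Mps/J and whose age as Adult, and the mutant clones came from a drug resistance screen. Ptch and Sufu restrain Hedgehog signalling and Ofd1 is a protein of the centriole and ciliary base. Every clone except R14 is known from a single library, so for those clones a difference between clones cannot be told apart from a difference between cultures or libraries.

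Imprinted genes are expressed from the maternal or the paternal copy alone in at least some tissues. DNA methylation set in one germline marks the copies, is kept by maintenance methylation and by zinc finger proteins such as ZFP57 through later divisions, and acts over clusters of neighbouring genes. A clone grows from a single cell, so an altered imprint in that cell would pass to its descendants. The counts used here add both parental copies together and cannot say which copy was expressed.

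Library totals ran from 24308451 to 38241595 counts. The mutated genes were below the parental range in the clones labelled for them. Ofd1 had between 9.27 and 23.4 CPM in Ofd1 mutant libraries against 35.4 to 42.9 CPM in parental libraries. Ofd1 also had 23.4 CPM in sonidegib 2, but was not below the parental range in sonidegib 1 or the Sufu mutant libraries. Sufu had 2.76 CPM in R13 and 17.7 CPM in R1 against 27.7 to 29.6 CPM in parental libraries. Low Sufu was not particular to these clones. Sufu had 12.02 and 12.41 CPM in R14, 15.7 CPM in R16, 19.2 CPM in R25, and 24.8 and 5.60 CPM with sonidegib. Its level thus does not tell R1 from the Ofd1 mutant clones. All 7 granule cell progenitor markers and all 6 neuron markers were above 0.5 CPM on average. So were 3 of 5 astrocyte, 3 of 6 oligodendrocyte lineage and 2 of 4 endothelial markers. None of 6 fibroblast and pericyte, 4 microglial and 3 muscle and mesoderm markers were. The neuron markers summed to 681 to 715 CPM with sonidegib and 432 to 609 CPM in parental libraries. Their sum was 486 to 887 CPM in Ofd1 mutant and 477 to 815 CPM in Sufu mutant libraries. Parental 1, parental 2 and sonidegib 1 stood apart from the other 8 libraries on the second principal component, with 35.5 to 39.3 against -34.7 to -4.89. Sonidegib 2 departed from sonidegib 1 by transcript length, with a Spearman correlation of -0.60 between length and the log2 ratio over 12516 genes. In these bulk samples fewer cells of a type and less RNA per cell cannot be told apart.

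The 5 listed genes of 1 imprinted cluster were close to silent in this line. The Dlk1-Dio3 cluster on chromosome 12, which pairs the paternally expressed Dlk1 (a Notch ligand relative) and Dio3 (a thyroid hormone deiodinase) with maternally expressed noncoding RNAs. Meg3 and Dio3 had 0 counts in all 11 libraries together, which allows a level of up to 0.00859 CPM for counting error alone. Rian had 2 counts, Dlk1 5 and Mirg 20 over all libraries. No library had more than 8 counts of any of these 5 genes. Begain, a further imprinted gene of chromosome 12, averaged 9.78 CPM.

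Other clusters were split between silent and expressed genes. In the Snrpn cluster of chromosome 7, Snrpn, Mkrn3, Peg12 and Ube3a were kept, while Ndn had 1 count and Magel2 3 counts in all. In the Peg10-Sgce cluster of chromosome 6, Peg10, Sgce and Ppp1r9a were kept, whereas Calcr had 2 counts, Tfpi2 5 and Asb4 9. Among genes next to the Kcnq1ot1 control region of chromosome 7, Osbpl5, Tssc4 and Cd81 were kept and Slc22a18 had 2 counts. Dcn, a proteoglycan of connective tissue, had 7 counts, beside the low sum of the fibroblast and pericyte markers, which lay between 0.336 and 1.69 CPM over all libraries.

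The members nearest the level used for selection were Grb10 at 0.771 CPM and H19 at 0.853 CPM on the upper side, and Ascl2 at 0.403 CPM, Phlda2 at 0.307 CPM and Rasgrf1 at 0.226 CPM below it. Phlda2, a maternally expressed brake on placental growth, gave 0 and 9 counts under sonidegib, 17 and 20 in the R14 libraries, 6 in R16, 25 in R25, 14 in R13 and 10 in R1, against 0, 2 and 3 counts in the parental libraries. All 6 clone libraries were thus above all 3 parental ones, at 25 counts or fewer. With edgeR's quasi-likelihood test the adjusted p was 0.118 for Ofd1 mutant against parental cells and 0.397 for Sufu mutant against parental cells. DESeq2 gave 0.0213 for Ofd1 mutant cells and no adjusted value for Sufu mutant cells.

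Per kilobase of longest annotated transcript, Gnas, the stimulatory G protein subunit that restrains Hedgehog signalling in granule progenitors, had the highest level of the kept members in parental cells, at 138 CPM per kb. Cd81, a tetraspanin of the cell surface, followed at 105 CPM per kb. Plagl1, a zinc finger factor expressed from the paternal copy, had 42.1 CPM per kb, and Mest and its neighbour Copg2 each had 30.8 CPM per kb. At the other end H19 had 0.185, Zim1 0.160 and Grb10 0.0827 CPM per kb. Gnas had 523 and 683 CPM with sonidegib, 505 to 557 CPM over the 4 Ofd1 mutant libraries, 509 and 551 CPM in the Sufu mutant libraries and 544 to 549 CPM in the parental libraries, so it varied little outside the sonidegib pair.

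**Figure D1:**
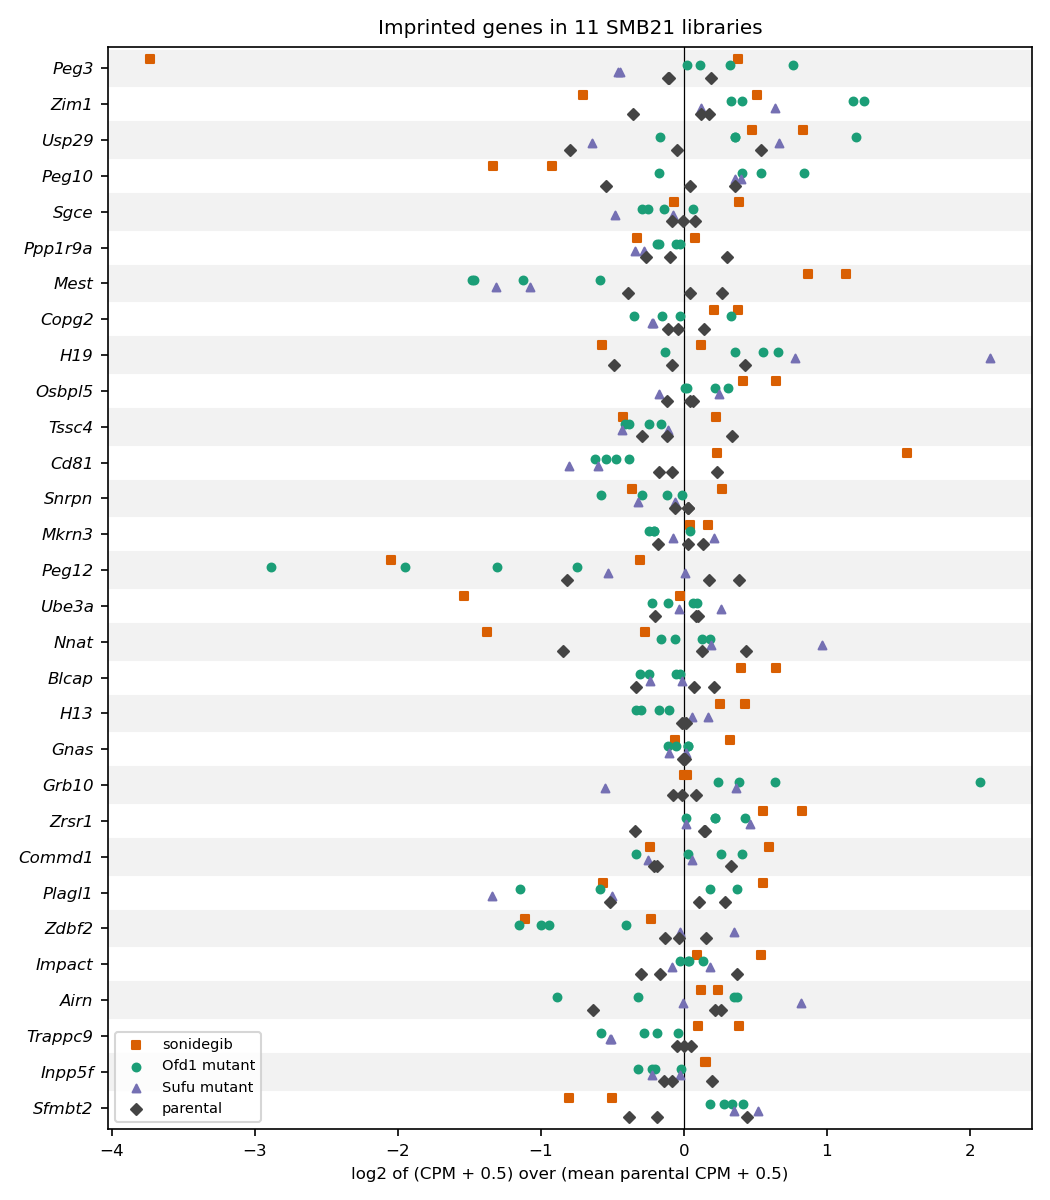
Each of the 30 kept imprinted genes is a row, and each point is one library's log2 of (CPM + 0.5) relative to the mean parental level, coloured by group. Most rows lie within about 1 log2 unit of the parental mean, and the single farthest point is Peg3 in sonidegib 2.

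Variation of the imprinted genes over the 9 libraries without sonidegib was close to that of the table as a whole. The median standard deviation of the log2 level was 0.26 for the 30 members and 0.27 for all genes at 0.5 CPM or more. A fold of at least 4 between the highest and lowest of those 9 libraries was reached by 3 members, H19, Grb10 and Peg12, or 10% of them, beside 9.77% of all genes. With the sonidegib libraries included, 8 members reached it, the others being Peg3, Peg10, Mest, Nnat and Cd81, beside 19.7% of all genes. Grb10, which is in both counts, was kept only through the Ofd1 mutant libraries, so its range is no separate support.

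For clone-specific gain or loss, a gene was asked to have every library of a clone at least 2-fold above or below every other library, on CPM + 0.5. One member met this, H19 as a gain in clone R1, and no member met it as a loss. Among all genes at 0.5 CPM or more, 2.09% met it in some clone, and by clone the share was 0.437% for gains and 0.0904% for losses in R13, 0.226% and 0.505% in R1, 0.00753% and 0.0301% in R14, 0.0151% and 0% in R16, and 0.633% and 0.196% in R25. The next nearest members were Peg12, 1.79-fold below every other library in R16, Nnat, 1.44-fold above in R1, and Grb10, 1.39-fold below in R1.

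H19 is a maternally expressed noncoding RNA that shares a methylated control region with Igf2. It had 3.57 CPM (85 counts) in R1 and 1.08 CPM (27 counts) in R13. The Ofd1 mutant libraries had 0.342 and 0.959 CPM for R14, 0.683 CPM for R16 and 0.856 CPM for R25, the sonidegib libraries 0.501 and 0.119 CPM, and the parental libraries 0.158, 0.372 and 0.738 CPM. R1 stood alone, and R13, the other Sufu mutant clone, lay just above the remaining libraries. The Sufu mutant against parental difference was 2.46 ± 0.79 log2 units (SE), with an adjusted p of 0.447 by edgeR, and without R1 it was 1.36. Of 6 oligodendrocyte lineage markers 3 averaged above 0.5 CPM and their sum was 55.8 to 87.8 CPM with sonidegib, 224 to 418 CPM in Ofd1 mutant, 193 to 478 CPM in Sufu mutant and 151 to 369 CPM in parental libraries, while Olig1 at 3.53 CPM and Sox10 at 2.81 CPM were highest in R1. Their part in the H19 value was not tested.

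Igf2, the paternally expressed growth factor beside H19, was high in the other Sufu mutant clone. R13 had 52.9 CPM and R1 13.1 CPM, and the sonidegib libraries had 20.3 and 11.5 CPM. The Ofd1 mutant libraries had 13.3 and 25.4 CPM for R14, 12.4 CPM for R16 and 9.03 CPM for R25, and the parental libraries had 11.9, 17.2 and 21.0 CPM. R13 was 2.06-fold beyond the nearest other library, and R1 lay within the parental range, so the 2 neighbours had their highest values in different clones.

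**Figure D2:**
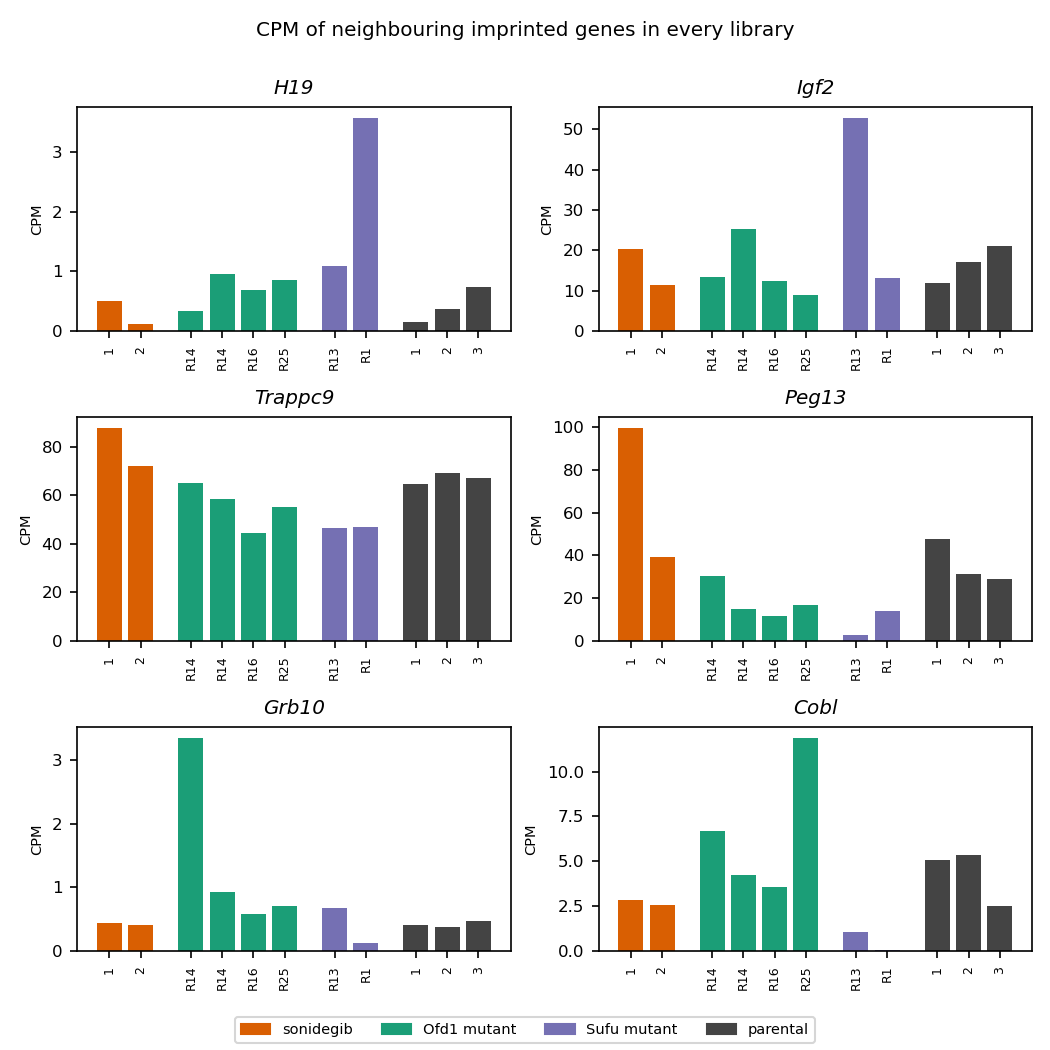
Bars give the CPM of 3 pairs of neighbouring imprinted genes in each library, with clones or replicate numbers under the bars. H19 is highest in R1 and Igf2 in R13, Peg13 is lowest in R13, and Cobl is nearly absent in R1 and next lowest in R13.

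Mest, a paternally expressed hydrolase-fold protein of chromosome 6, lay on 1 side of the parental range in every clone and on the other side with sonidegib. The 250 bases before one of its listed starts (RefSeq, GRCm38.p6, chr6:30737800-30738049, plus strand) are shown because Mest carries the clearest pattern of the set. Capitals mark TGCCGC or its reverse complement GCGGCA, the core bound by ZFP57. This start was picked for its copies of the motif, and the window of another listed start, farther upstream, held 0.
Mest: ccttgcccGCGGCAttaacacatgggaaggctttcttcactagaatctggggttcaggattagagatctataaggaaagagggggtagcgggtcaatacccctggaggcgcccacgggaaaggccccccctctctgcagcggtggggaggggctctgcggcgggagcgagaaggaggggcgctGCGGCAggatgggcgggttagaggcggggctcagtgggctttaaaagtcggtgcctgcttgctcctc

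Mest had 149.9 and 180.2 CPM in the sonidegib libraries. Ofd1 mutant clones had 29.1 and 37.3 CPM in R14, 29.3 CPM in R16 and 54.5 CPM in R25, and Sufu mutant clones had 38.7 CPM in R13 and 32.8 CPM in R1. Parental libraries had 98.9, 84.5 and 62.6 CPM. Every clone library was below every parental library and both sonidegib libraries were above, with no overlap between parental and any other group. Among all genes, 3.5% had all 6 clone libraries below all 3 parental ones, and Mest and Cd81 were the 2 members that did. The opposite order, all clone libraries above all parental ones, was met by 0 of the 30 kept members and 2.65% of all genes.

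The Ofd1 mutant mean was 37.6 ± 12.0 CPM (SD, n = 4 libraries of 3 clones) and the parental mean 82.0 ± 18.3 CPM (SD, n = 3), a log2 difference of -1.11 ± 0.25 (SE). Its adjusted p was 0.111 by edgeR and 0.00204 by DESeq2, and with the R14 libraries summed as 1 sample it was 0.205 by edgeR. For the Sufu mutant clones the difference was -1.18 ± 0.23, with an adjusted p of 0.283 by edgeR and 0.00107 by DESeq2. Sonidegib gave a difference of 1.00 ± 0.25, with an adjusted p of 0.187 by edgeR and 0.0375 by DESeq2, and without sonidegib 1 the edgeR value was 0.0419, in a fit where the spread came from the parental libraries alone and 3263 genes passed. These 3 comparisons share the parental libraries. Against parental 3 alone, the parental library that did not stand apart on the second principal component, the differences were -0.73 for Ofd1 mutant and -0.80 for Sufu mutant cells, with adjusted p of 0.561 and 0.948 by edgeR. The summed level of the 7 granule cell progenitor markers was 2989 to 3260 CPM with sonidegib, 1746 to 2202 CPM in Ofd1 mutant and 1495 to 1584 CPM in Sufu mutant libraries, against 1841 to 1946 CPM in parental libraries. The summed level of 5 astrocyte markers, of which 3 averaged at least 0.5 CPM, was 486 to 487 CPM with sonidegib, 196 to 265 CPM in Ofd1 mutant and 136 to 149 CPM in Sufu mutant libraries, against 227 to 328 CPM in parental libraries. One of them, Gfap, averaged 103 CPM with sonidegib against 21.8 CPM in parental libraries. The part of these markers in the Mest values was not tested.

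Copg2, a coatomer subunit whose gene overlaps Mest, varied less. It had 158 and 141 CPM under sonidegib, 95.8 to 154 CPM in Ofd1 mutant, 105 and 104 CPM in Sufu mutant and 113 to 134 CPM in parental libraries. Like Mest it was above all parental libraries with sonidegib and below them in both Sufu mutant clones, but its Ofd1 mutant libraries overlapped the parental range, and its log2 differences of 0.29 ± 0.20, -0.21 ± 0.14 and -0.020 ± 0.16 (SE) had adjusted p of 0.494, 0.665 and 0.976 by edgeR. Whether reads were assigned by strand is not given in the sources used here, so reads of overlapping members (Copg2 and Mest, Blcap and Nnat, Commd1 and Zrsr1) cannot be fully told apart.

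Zdbf2, a paternally expressed gene of chromosome 1 with a DBF-type zinc finger, had the lowest adjusted p of the members among the clones and was named here for that after its values were seen. It has 2 listed starts 72.9 kb apart. The window before the upstream one (RefSeq, GRCm38.p6, chr1:63200108-63200357, plus strand) is shown with the same motif in capitals. That window was picked for its copies of the motif, and the window of the other start held 0.
Zdbf2: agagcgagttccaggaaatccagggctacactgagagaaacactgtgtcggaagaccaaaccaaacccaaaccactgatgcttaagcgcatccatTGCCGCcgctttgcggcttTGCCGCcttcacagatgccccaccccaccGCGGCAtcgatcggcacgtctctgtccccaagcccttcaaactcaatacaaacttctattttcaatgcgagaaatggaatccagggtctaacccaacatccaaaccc

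Sonidegib 1 had 187 CPM of Zdbf2 and sonidegib 2 had 101 CPM. In Ofd1 mutant clones it had 114 and 98.4 CPM in R14, 109.8 CPM in R16 and 166 CPM in R25. Sufu mutant clones had 279.9 CPM in R13 and 215 CPM in R1, and parental libraries had 215, 244 and 200.3 CPM. All Ofd1 mutant libraries were under all Sufu mutant and parental ones, while Sufu mutant and parental libraries overlapped. Both sonidegib libraries were also under all parental ones, so a level below the parental range was not particular to Ofd1 mutant cells. The sonidegib against parental difference was -0.61 ± 0.30 log2 units (SE), with an adjusted p of 0.401 by edgeR.

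The Ofd1 mutant against parental difference of Zdbf2 was -0.84 ± 0.19 log2 units (SE), with an adjusted p of 0.104 by edgeR and 0.00274 by DESeq2. Against Sufu mutant cells it was -1.04 ± 0.23, with an adjusted p of 0.315 by edgeR and 0.00919 by DESeq2. The edgeR F test among the 5 clones gave an adjusted p of 0.102. Without parental 3 it was 0.00604, in a fit where 2572 of 14598 genes passed, against 7 of 14647 in the main fit. That lower value is thus not particular to Zdbf2. R25 was the mildest of the Ofd1 mutant libraries for both Zdbf2 and Mest. Without it the adjusted p for Ofd1 mutant against parental cells was 0.0179 for Zdbf2 and 0.0271 for Mest by edgeR. In that fit 226 genes passed, against 50 in the main fit. Leaving out any other Ofd1 mutant or parental library called 0 members. Singling out R25 follows the values under test and leaves R14 with 2 libraries beside R16 with 1, so these p-values are no separate support.

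**Figure D3:**
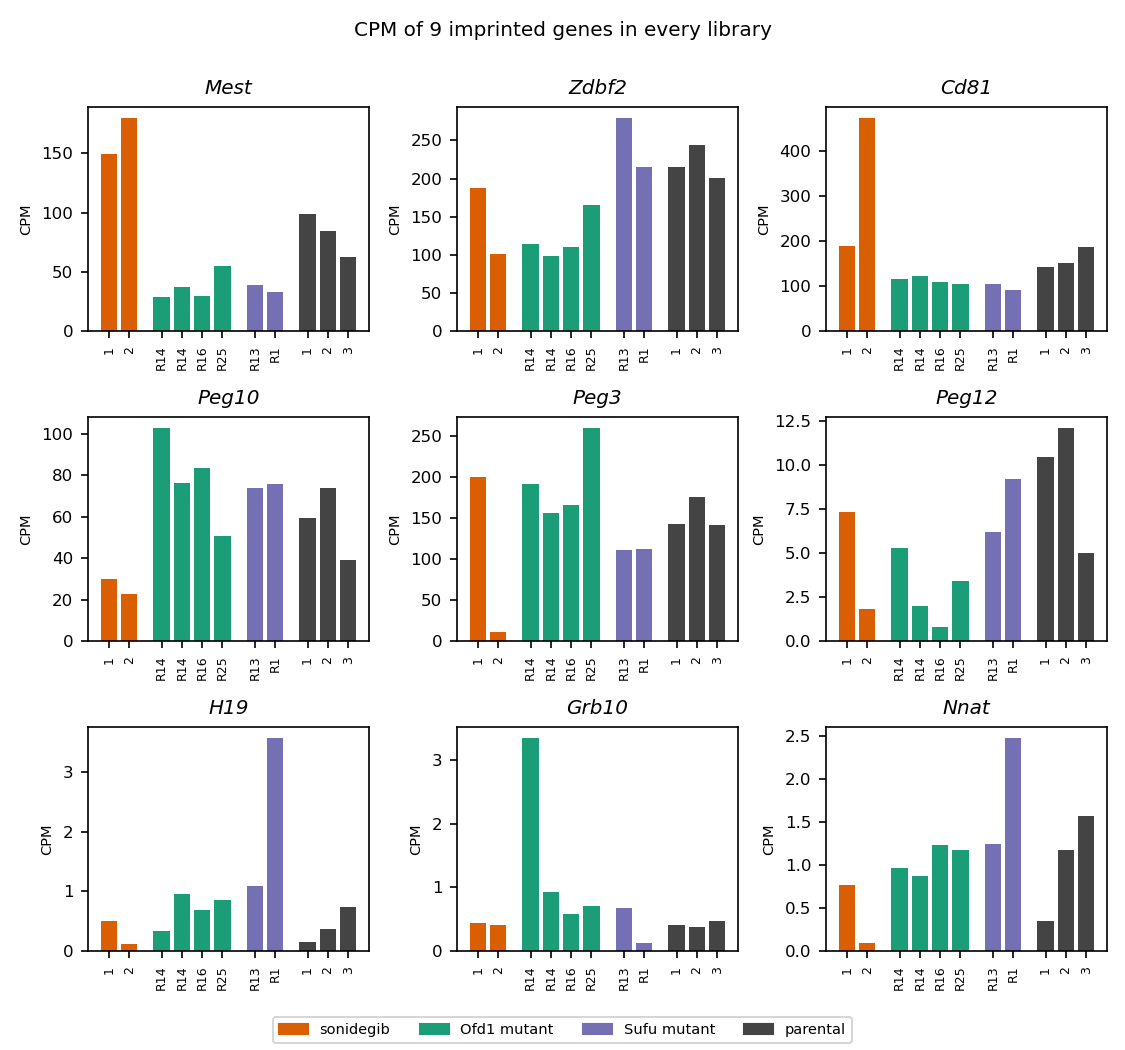
Bars give the CPM of 9 imprinted genes in each library, coloured by group, with clones or replicate numbers under the bars. Mest is lower in all 6 clone libraries and higher in both sonidegib libraries than in any parental library, Zdbf2 is lowest in the Ofd1 mutant and sonidegib 2 libraries, and H19 and Grb10 each have 1 tall bar.

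Cd81, maternally expressed in placenta, was the other member with every clone library under every parental one. It had 115 and 123 CPM in R14, 109.7 CPM in R16, 104 CPM in R25, 105 CPM in R13 and 91.7 CPM in R1, against 142, 151 and 188 CPM in parental libraries. The differences were smaller than those of Mest, at -0.50 ± 0.12 log2 units (SE) for Ofd1 mutant and -0.69 ± 0.18 for Sufu mutant cells, with adjusted p of 0.129 and 0.368 by edgeR. Under sonidegib it had 188 and 475 CPM against these parental values, and the mean difference of 1.04 ± 0.38 rested on sonidegib 2: without that library it was 0.21, and without sonidegib 1 it was 1.51. With sonidegib 2 as the lone treated library, assumed to vary like the parental ones, edgeR gave Cd81 an adjusted p of 0.0120 and passed 3263 genes.

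Peg10, a paternally expressed gene of retrotransposon origin that is needed for placental growth, had its lowest 2 values under sonidegib. It had 30.1 and 22.5 CPM with sonidegib. The clones had 103 and 76.3 CPM in R14, 83.8 CPM in R16, 50.9 CPM in R25, 73.8 CPM in R13 and 75.9 CPM in R1, and parental libraries had 59.3, 73.8 and 39.3 CPM. Both sonidegib libraries were below all others, and the clones overlapped the parental range. The sonidegib difference was -1.13 ± 0.33 log2 units (SE), with an adjusted p of 0.235 by edgeR and 0.0425 by DESeq2. Its neighbour Sgce, a sarcoglycan, had 30.1 and 41.4 CPM with sonidegib against 29.8 to 33.5 CPM in parental libraries, so the pair was not low together.

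Peg3 and Usp29 are a paternally expressed zinc finger gene and a deubiquitinase gene of chromosome 7 that start 164 bases apart on opposite strands. The 250 bases before the Peg3 start (RefSeq, GRCm38.p6, chr7:6730420-6730669, minus strand) hold the Usp29 start and are shown to set this shared start region beside the different values of its genes; they hold no TGCCGC on either strand.
Peg3: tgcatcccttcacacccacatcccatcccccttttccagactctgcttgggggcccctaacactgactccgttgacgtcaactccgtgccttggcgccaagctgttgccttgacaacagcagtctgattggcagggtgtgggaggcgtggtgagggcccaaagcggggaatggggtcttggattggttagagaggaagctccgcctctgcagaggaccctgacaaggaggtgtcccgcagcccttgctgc

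Peg3 had 192 and 156 CPM in R14, 165 CPM in R16, 259.9 CPM in R25, 111 CPM in R13 and 112 CPM in R1. Parental libraries had 143, 175 and 142 CPM. The Sufu mutant clones were below and the Ofd1 mutant clones overlapped the parental range, and no Ofd1 mutant library overlapped the Sufu mutant ones. The Ofd1 mutant against Sufu mutant difference was 0.77 ± 0.23 log2 units (SE), with an adjusted p of 0.446 by edgeR. Usp29 ran from 6.01 to 16.4 CPM in Ofd1 mutant libraries, with 11.1 CPM in R13 and 4.20 CPM in R1, against 3.72 to 10.2 CPM in parental libraries, and did not separate the groups. Zim1, the maternally expressed neighbour, had 1.68 and 1.80 CPM in R14, 3.45 CPM in R16 and 3.66 CPM in R25, all above the 0.855 to 1.46 CPM of parental libraries, a difference of 1.11 ± 0.41 with an adjusted p of 0.279 by edgeR.

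Under sonidegib the Peg3 values were 199.6 and 11.1 CPM, the largest ratio between the sonidegib replicates among the 30 members. All 8 members with a longest transcript over 6 kb were lower in sonidegib 2 than in sonidegib 1, by a median log2 ratio of -0.65, while 9 of 22 shorter members were lower, with a median of 0.14. The Spearman correlation of this ratio with length was -0.54 over the 30 members, which share these 2 libraries. Among these long members Ube3a, a ubiquitin ligase, came next with 179 and 62.7 CPM. Shorter members also differed between the libraries, with log2 ratios of -1.74 for Peg12, -1.12 for Plagl1, -1.10 for Nnat and 1.33 for Cd81.

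**Figure D4:**
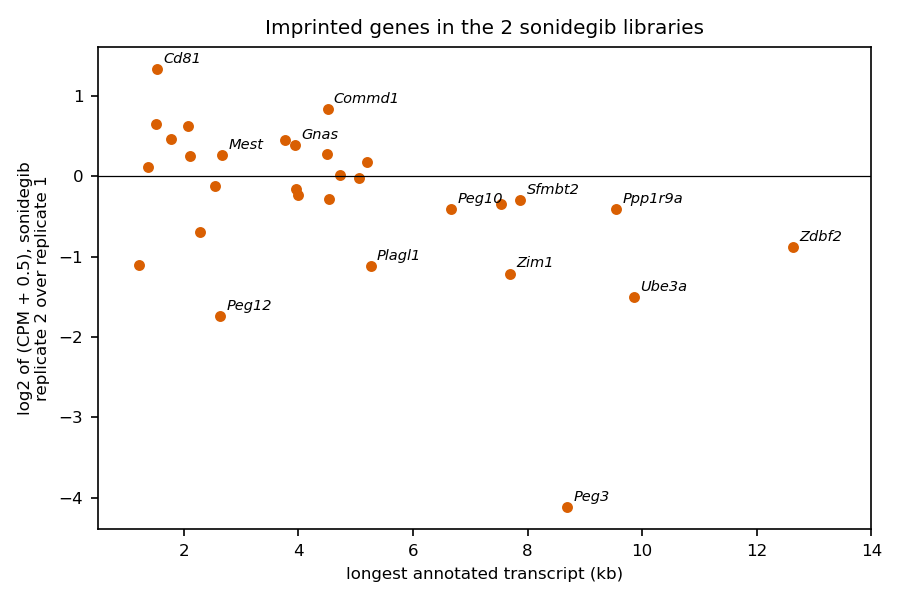
Each point is one of the 30 imprinted genes, with the length of its longest annotated transcript in kb on the horizontal axis and the log2 ratio of sonidegib 2 over sonidegib 1 on the vertical axis. All 8 points beyond 6 kb lie below 0, with Peg3 lowest at -4.11 and Cd81, a short transcript, highest at 1.33.

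Peg12, a paternally expressed gene of the Snrpn cluster related to GSK3-binding proteins, was low in Ofd1 mutant clones. The sonidegib libraries had 7.34 and 1.85 CPM. It had 5.28 and 2.01 CPM in R14, 0.813 CPM in R16, 3.43 CPM in R25, 6.21 CPM in R13 and 9.24 CPM in R1, against 10.4, 12.1 and 4.99 CPM in parental libraries. The first R14 library overlapped parental 3, and R16 was the lowest library of all. The difference was -1.66 ± 0.57 log2 units (SE), with an adjusted p of 0.247 by edgeR and 0.0489 by DESeq2, and against parental 3 alone it was -0.78. Neighbours in the cluster overlapped the parental range in the Ofd1 mutant clones: Snrpn, a splicing protein, had 29.2 to 43.4 CPM against 42.0 to 44.8 CPM in parental libraries, and Mkrn3, a RING finger protein, had 9.19 to 11.3 CPM against 9.59 to 12.1 CPM in parental libraries.

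Grb10, an adaptor that dampens insulin receptor signalling and is expressed from opposite parental copies in different tissues, varied within a single clone. The first R14 library had 3.35 CPM (108 counts) and the second 0.928 CPM (30 counts). R16 had 0.585 CPM and R25 0.701 CPM, R13 0.681 CPM and R1 0.126 CPM (3 counts), the sonidegib libraries 0.434 and 0.417 CPM, and parental libraries 0.411, 0.372 and 0.473 CPM. All Ofd1 mutant libraries lay above the parental ones, by 1.73 ± 0.68 log2 units (SE) with an adjusted p of 0.304 by edgeR, and without the first R14 library by 0.83. Grb10 averaged 1.39 CPM in Ofd1 mutant libraries, against 0.425 CPM with sonidegib, 0.404 CPM in Sufu mutant and 0.419 CPM in parental libraries. It passed the level of 0.5 CPM only through the Ofd1 mutant libraries, so its rise there is no separate support. Nnat, a small membrane protein gene of chromosome 2, had 0.768 and 0.0894 CPM with sonidegib, 0.963 and 0.867 CPM in R14, 1.24 CPM in R16, 1.17 CPM in R25, 1.24 CPM in R13 and 2.48 CPM in R1, against 0.348, 1.17 and 1.57 CPM in parental libraries. R1 was highest for Nnat as for H19, at 59 counts, and the remaining clones overlapped the parental range.

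Plagl1 showed wide differences between clones that crossed the mutant groups. The sonidegib libraries had 325 and 149 CPM. R14 had 99.8 and 147 CPM, R16 286 CPM, R25 251 CPM, R13 87.0 CPM and R1 156 CPM, against 239, 271 and 155 CPM in parental libraries. R16 lay above the parental range, R25 and R1 within it, and R13 and both R14 libraries below it. The edgeR F test among clones gave an adjusted p of 0.224 for Plagl1 and 0.156 for Peg3. Without parental 3 both passed, at 0.0256 and 0.0257, in the fit where 2572 of 14598 genes passed, against 7 of 14647 in the main fit. Airn, the noncoding RNA that silences Igf2r on the paternal copy, had 7.33 and 4.80 CPM in R14, 12.2 CPM in R16, 12.0 CPM in R25, 16.7 CPM in R13 and 9.24 CPM in R1, against 5.79 to 11.2 CPM in parental libraries. Airn overlaps Igf2r on the opposite strand and averaged 10.1 CPM, against 89.0 CPM for Igf2r. With the counting strand not given, some Airn counts may be Igf2r reads.

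Counts over all 30 members gave few calls. For Ofd1 mutant against parental cells, 0 members passed an adjusted p of 0.05 with edgeR, beside 50 of 13779 genes (0.363%). At an unadjusted p of 0.05, 2 members were higher and 4 lower (20% of members, beside 13.8% of all genes), and DESeq2 called 4 of the 30, all lower (5.46% of all genes): Mest, Zdbf2, Cd81 and Peg12. Groups did not overlap for 2 members higher and 4 lower, beside 6.17% and 7.25% of all genes. Grb10, kept only through the Ofd1 mutant libraries, was among the higher members in both of these counts. The median log2 difference was -0.025 for members and 0.0079 for all genes.

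For Sufu mutant against parental cells edgeR called 0 members and 0 of 13854 genes (0%). At an unadjusted p of 0.05, 1 member was higher and 5 lower (20%, beside 9.68% of all genes), and DESeq2 called 3, all lower (2.4% of all genes): Mest, Cd81 and Trappc9, a subunit of a vesicle tethering complex. Groups did not overlap for 2 members higher and 6 lower, beside 11.9% and 14.8% of all genes. The median log2 difference was -0.028 for members and 0.0043 for all genes. Trappc9 had 46.7 CPM in R13 and 46.9 CPM in R1 against 64.7, 69.3 and 67.0 CPM in parental libraries, a difference of -0.50 ± 0.13 log2 units (SE) with an adjusted p of 0.382 by edgeR.

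**Figure D5:**
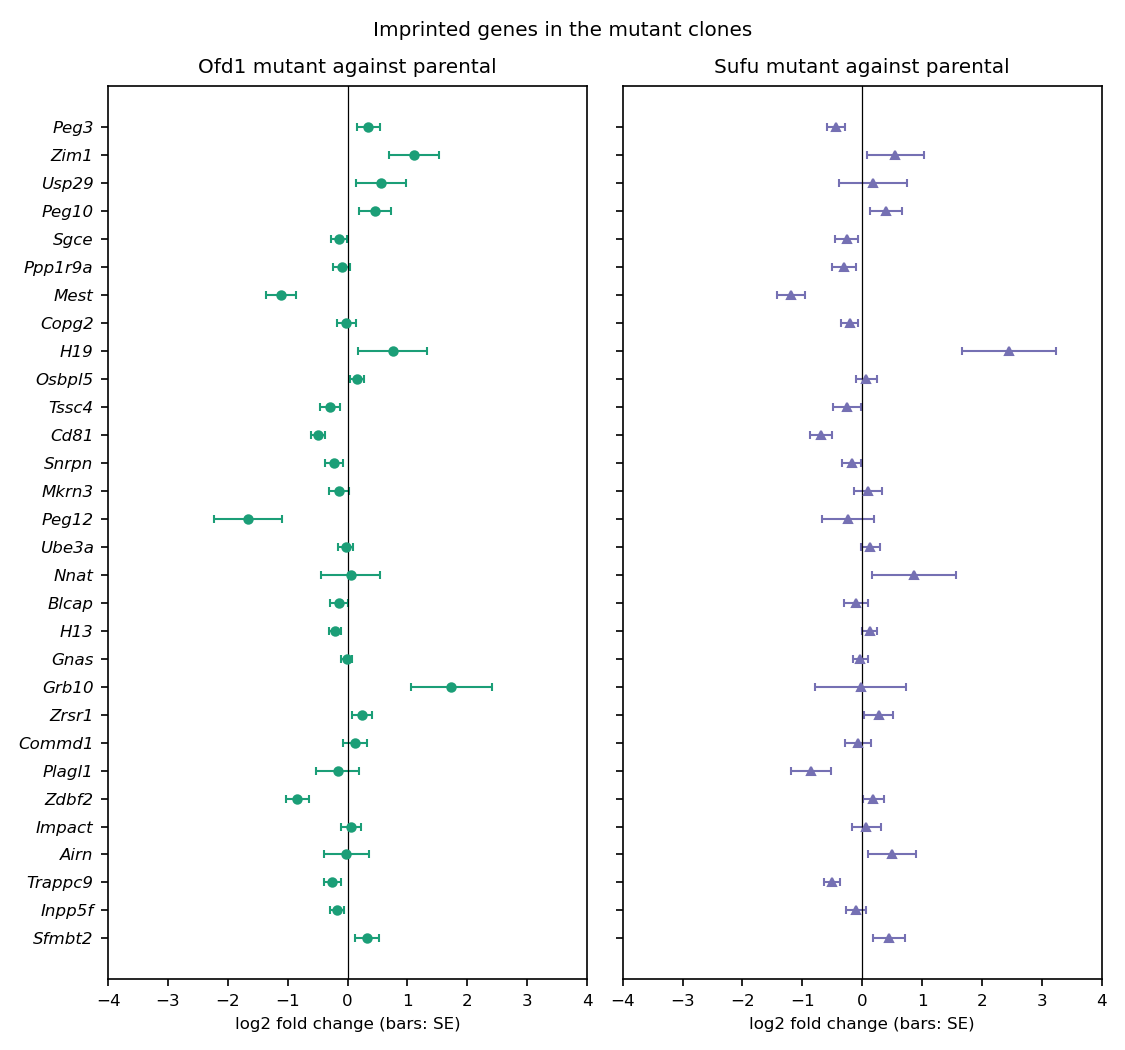
Points give edgeR's log2 fold change of each kept imprinted gene against parental cells, with bars of 1 SE, for Ofd1 mutant (left) and Sufu mutant (right) clones. Mest and Cd81 lie to the left of 0 in both panels, Zdbf2 and Peg12 for Ofd1 mutant cells, and H19 is far to the right for Sufu mutant cells.

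Sonidegib against parental cells also gave 0 member calls with edgeR, beside 9 of 13809 genes (0.0652%). At an unadjusted p of 0.05, 4 members were higher and 1 lower (16.7%, beside 14% of all genes), and DESeq2 called Mest as higher and Peg10 as lower (5.15% of all genes). Groups did not overlap for 8 members higher and 3 lower, beside 18% and 16.3% of all genes. The median log2 difference was 0.12 for members and 0.036 for all genes. Osbpl5, a lipid transfer protein, had 91.5 and 77.9 CPM with sonidegib against 60.0, 61.0 and 53.7 CPM in parental libraries, and the splicing gene Zrsr1, an intronless copy whose reads may be shared with its parent gene, had 30.2 and 36.6 CPM against at most 22.7 CPM in parental libraries.

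For Ofd1 mutant against Sufu mutant cells edgeR called 0 members, beside 1 of 14026 genes (0.00713%). At an unadjusted p of 0.05, 1 member was higher and 3 lower (13.3%, beside 8.93% of all genes), and DESeq2 called Zdbf2 (1.84% of all genes). Groups did not overlap for 2 members higher and 5 lower, beside 9.85% and 8.34% of all genes. H13, the signal peptide peptidase gene, had 79.6 and 77.9 CPM in R14, 87.1 CPM in R16 and 91.3 CPM in R25 against 110.6 CPM in R13 and 102 CPM in R1, a difference of -0.36 ± 0.12 log2 units (SE) with an adjusted p of 0.478 by edgeR. The F test among the 5 clones called 0 members and 7 of 14647 genes (0.0478%). At an unadjusted p of 0.05 it passed 4 members (13.3%: Zdbf2, Peg3, Plagl1 and Grb10) beside 17.3% of all genes. Grb10 was kept only through the Ofd1 mutant libraries, so its place in this count is no separate support.

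Of 31 further imprinted genes on a second list, 18 averaged at least 0.5 CPM, and 4 of these met the clone-specific rule, beside 2.09% of all genes. Besides Igf2 in R13 these were Peg13, Cobl and Qpct. Peg13, a paternally expressed noncoding RNA inside Trappc9, had 3.05 CPM in R13 against 11.7 CPM in the nearest other library. Cobl, an actin nucleator beside Grb10, had 0.0840 CPM (2 counts) in R1 against 1.04 CPM in R13, the nearest other library. Both Sufu mutant clones were below the 2.51 to 5.34 CPM of Cobl in parental and 3.58 to 11.9 CPM in Ofd1 mutant libraries. The Sufu mutant against parental difference of Cobl was -2.90 ± 0.96 log2 units (SE). Its adjusted p was 0.451 by edgeR and 0.0358 by DESeq2. Qpct had 0.493 CPM in R25 against 1.61 CPM in the nearest other library. Peg13 had 13.9 CPM in R1, 11.7 to 30.2 CPM in Ofd1 mutant and 29.2 to 47.8 CPM in parental libraries, so both Sufu mutant clones were under the parental range, and reads of Peg13 and Trappc9 may be shared since the genes overlap. On this list edgeR called 0 genes in each comparison. At an unadjusted p of 0.05, Ofd1 mutant against parental cells gave 2 higher and 3 lower of 19 tested (26.3%, beside 13.8% of all genes), and DESeq2 called 2 higher and 1 lower (5.46% of all genes). Sufu mutant against parental cells gave 1 higher and 4 lower of 18 (27.8%, beside 9.68%), and DESeq2 called 1 higher and 3 lower (2.4% of all genes). Sonidegib against parental cells gave 1 higher of 18 (5.56%, beside 14%) and 0 calls by DESeq2 (5.15% of all genes). Ofd1 mutant against Sufu mutant cells gave 1 higher of 21 (4.76%, beside 8.93%), which DESeq2 called (1.84% of all genes).

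Nap1l5, a paternally expressed histone chaperone relative, and Pon2, a paraoxonase of the Peg10 cluster, are named for their separation from parental cells, after their values were seen. Nap1l5 had 3.64 to 8.54 CPM in Ofd1 mutant, 5.38 and 8.29 CPM in Sufu mutant and 0.916 to 1.68 CPM in parental libraries. Pon2 had 13.2 to 23.2 CPM in Ofd1 mutant, 8.02 and 21.4 CPM in Sufu mutant and 34.0 to 40.4 CPM in parental libraries. Neither overlapped between clones and parental cells. Among all genes, 2.65% had all clone libraries above all parental ones and 3.5% had them below. Igf2r, with 87.8 to 159 CPM in clones against 53.1 to 80.8 CPM in parental libraries, also separated. So did Casd1, with 45.6 to 71.1 CPM against 78.1 to 83.6 CPM. For Ofd1 mutant cells the adjusted p by edgeR was 0.0596 for Nap1l5, 0.0550 for Pon2, 0.121 for Igf2r and 0.295 for Casd1. Nap1l5 and Pon2 passed with DESeq2, at 1.33e-06 for Nap1l5 and 1.53e-05 for Pon2, and with edgeR without a filter on low counts, at 0.0459 for Nap1l5 and 0.0457 for Pon2. With DESeq2 Igf2r had an adjusted p of 0.00465 and Casd1 of 0.207.

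Of 14 genes that set, keep or remove imprint methylation, 13 were tested and edgeR called 0 in every comparison. Under sonidegib 1 was higher and 5 lower at an unadjusted p of 0.05 (46.2%, beside 14% of all genes), and DESeq2 called 3 as lower (5.15% of all genes), Uhrf1, Hells and Dnmt1. Uhrf1, which brings the maintenance methyltransferase to new DNA, averaged 82.9 ± 2.42 CPM with sonidegib (SD, n = 2) against 240.1 ± 8.70 CPM in parental libraries (SD, n = 3), with an adjusted p of 0.0847 by edgeR and 8.96e-11 by DESeq2. Dnmt1, that methyltransferase, had 185 and 115 CPM with sonidegib, 373 to 456 CPM in Ofd1 mutant, 366 and 539 CPM in Sufu mutant and 344 to 417 CPM in parental libraries. The clones thus held Dnmt1 at or above the lowest parental level.

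The start regions of the members were compared as sequence alone. RefSeq windows of 300 bases, 250 before and 50 after a start, were found for 39 of 45 members, and those of H19, Peg10, Impact, Sgce, Trappc9 and Dcn were not used here. TGCCGC, searched on both strands, was in a window of 10 of 25 kept members (40%) and of 2 of 14 members under 0.5 CPM, beside 13.1% of 27025 genes. The 10 were Commd1, Copg2, Grb10, Mest, Nnat, Osbpl5, Plagl1, Snrpn, Zdbf2 and Zim1. The richest window of a gene held a median of 18 CpG dinucleotides in kept members, 11.5 in members under 0.5 CPM and 8 over all genes.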

How the data were processed

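RNA-seq was performed on 11 libraries of SMB21 cells, with stranded mRNA libraries read as 75 bp single ends on one sequencing run, per the labels' protocols. Per the submitters' processing notes, STAR, DESeq2 and the mm9 build were used; no source used here names their versions or the counting strand. The authors deposited 1 table of raw read counts per gene for all libraries. Its row without a gene name held 0.0131% to 0.0192% of each library and was left out.

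Levels are CPM scaled by TMM. Pairs of groups were compared with edgeR 4.0.16 (quasi-likelihood, robust, filterByExpr, two-sided, Benjamini-Hochberg over all genes tested) in R 4.3.3, on the libraries of both groups alone. An F test across the 5 clones used 9 libraries, and its spread came from the parental libraries and the R14 pair, so the single libraries of other clones are assumed to vary alike. DESeq2 1.42.0 was an alternative, as were other scalings, filters and libraries left out. Scripts were tested on simulated data.

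Members, lists and tests were chosen with earlier results of these data known. Genes described in every library were those called, clone-specific, or with a 4-fold range. No label says that replicates were separate cultures beyond calling them biological, so p-values measure the spread between these libraries. The library totals limit a gene with 0 counts in 1 library to 0.0784 to 0.123 CPM (3 counts), for counting error alone. Transcript lengths came from a GRCm38 annotation and carry no coordinates here, since the counts are on mm9.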

Additional observations from a re-analysis of the deposited data

Results flagged for a closer look

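Of the 30 kept imprinted genes, 2 had a library far from the rest of the Ofd1 mutant group, judged by the gap between the highest library and the next one relative to the range of the 4. Chance flags about 1 in 20 groups of samples, so a number of this order can arise among 30 genes. Grb10 had 3.35 CPM in the first R14 library, with a gap of 0.876 of the range, and the second library of the same clone had 0.928 CPM. Mkrn3 had 11.3 CPM in the same library, with a gap of 0.886 of the range, inside the 9.59 to 12.1 CPM of the parental libraries.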

How the results depend on the processing

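With edgeR 0 members were called in any of the 4 group comparisons or among the clones, and several alternatives gave calls. DESeq2 called 4 members for Ofd1 mutant, 3 for Sufu mutant and 2 for sonidegib against parental cells, and 1 for Ofd1 mutant against Sufu mutant cells. With the R14 libraries alone and the replicate number as a block, 5 were called for Ofd1 mutant cells (Commd1, Mest, Plagl1, Sfmbt2 and Zdbf2), and 1583 of all genes. With the R14 libraries summed as 1 sample, 0 members and 1 gene in all were called. Sonidegib 1 against parental 1 and 2 gave 3 (Mest, Osbpl5 and Peg10) among 1393 genes called, with 1 treated library assumed to vary like parental 1 and 2, and the replicate block over all sonidegib and parental libraries gave 0. Leaving out 1 library at a time gave 0 to 2 members for Ofd1 mutant cells (2 without R25, when 226 genes in all were called, against 50), 0 to 0 for Sufu mutant cells, 0 to 5 for sonidegib (5 without sonidegib 1, namely Cd81, Mest, Peg3, Ube3a and Zdbf2, with 3263 genes called, against 9, the lone sonidegib library being assumed to vary like the parental ones) and 0 to 4 among the clones (4 without parental 3, namely Commd1, Peg3, Plagl1 and Zdbf2, with 2572 genes called, against 7). The cause was not tested.

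The clone-specific count of 1 was 2 at 1.5-fold, 0 at 4-fold, 4 against parental libraries alone, 3 with 0.1 added to CPM, 0 with a mean of at least 1 CPM, and 0 (without R1) to 2 (without the second R14 library) with 1 library left out. No value changed sign past the threshold: 43 single-gene results passed it under an alternative and 435 kept their side. Whether replicate numbers pair the libraries could not be decided. Correlations of deviations from the group mean were 0.26 and -0.32 between same-numbered sonidegib and parental libraries, and 0.12 and -0.13 between R14 and parental libraries. With 2 libraries in a group these deviations are mirror images, so opposite signs follow wherever parental 1 and 2 are alike. The highest correlation with sonidegib was 0.34, between sonidegib 2 and parental 3. Sufu mutant labels carry no replicate number. H19, Grb10 and Nnat rest on 3 to 108 counts a library, and single-library clones allow no spread of their own.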
